A study of Sus scrofa with 16 samples.

Results

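The transcripts of 8 genes that package or copy chromatin were followed in cultured porcine satellite cells (SCs), the stem cells of skeletal muscle. They are the high mobility group genes *HMGB1*, *HMGB2*, *HMGN2* and *HMGA1*, the variant histone gene *H2AFZ*, the maintenance DNA methyltransferase gene *DNMT1*, the histone chaperone gene *ASF1B* and the chromatin reader gene *PSIP1*. They were picked by name, 8 of the 3875 genes in the count table, by someone who already knew results of these data. Their values are therefore given as a description without *p*-values, and where they are counted as called, nothing is read from the counts. Tests are given for genes outside the set, in lists that were also written with earlier results of these data known. The libraries form groups of 4: DMD SCs after differentiation (DMD DIFF), DMD SCs in proliferation (DMD PROL), WT SCs after differentiation (WT DIFF) and WT SCs in proliferation (WT PROL). DMD SCs came from piglets of a Duchenne muscular dystrophy model that lacks exon 52 of the dystrophin gene, and WT SCs from healthy piglets. All piglets were 3 days old, and each of the 4 DMD and 4 WT animals gave 1 PROL and 1 DIFF library. PROL cells grew in Ham's F10 with 20% fetal bovine serum and basic fibroblast growth factor, and DIFF cells were kept in Ham's F10 with 5% horse serum, for 10 days according to the sequencing methods and 7 days according to the culture methods. The cells had been enriched from intercostal muscle with magnetic beads and sequenced at passage 6, so that the libraries describe cultures and not muscle tissue.

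High mobility group proteins are abundant nuclear proteins that bend DNA or loosen nucleosomes and thereby make chromatin accessible. When a cell copies its genome, new nucleosomes are assembled behind the replication fork from histones handed over by chaperones, and the methylation pattern of the parental strand is copied onto the new one. Genes of this machinery are known to be transcribed mostly in dividing cells, and muscle precursors leave the cell cycle when they fuse into myotubes.

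Values are CPM, counts scaled to a common library size with TMM factors, a normalization that assumes most genes do not differ. Each library is the sum of 2 technical duplicates and held 1110050 to 1781174 counts, of which 6.32% to 20.4% belonged to the ribosomal gene *RN18S*. The *DMD* gene itself had 162, 114, 70 and 24 counts in total in DMD DIFF, DMD PROL, WT DIFF and WT PROL, and reads of this kind do not show the deleted exon. Of 13 myogenic markers 7 were among the genes counted, without *PAX7*, and *MYF5* had 40 and 30 counts in DMD DIFF and DMD PROL and none in WT DIFF or WT PROL. The summed level of the myogenic markers was 9303 to 11016 CPM in DMD DIFF, 5591 to 6743 in DMD PROL, 3521 to 4043 in WT DIFF and 3076 to 4968 in WT PROL, most of it *ITGB1*. The 7 of 11 fibroblast markers counted summed to 9775 to 13101 CPM in DMD DIFF, 4215 to 4667 in DMD PROL, 21986 to 25088 in WT DIFF and 8429 to 10190 in WT PROL. The smooth muscle and pericyte markers, 5 of 8 counted, summed to 17960 to 22611 CPM in DMD DIFF, 2959 to 3615 in DMD PROL, 1738 to 3729 in WT DIFF and 2021 to 3252 in WT PROL. Their sums overlapped between the genotypes in PROL. *DES*, which is also a myogenic marker, averaged 1170 CPM in DMD PROL and 71.0 CPM in WT PROL. In PROL it was the only 1 of the 5 called higher in DMD, and 2 were called lower, *RGS5* (log2 fold change −4.40) and *CNN1* (−1.13). The endothelial markers, 4 of 9 counted, summed to 27.4 to 49.1 CPM in DMD DIFF, 13.5 to 28.9 in DMD PROL, 60.6 to 114 in WT DIFF and 107 to 134 in WT PROL. The genotypes therefore differed in markers of cell type in both states, and what part this had in the values of the 8 genes was not tested. In such bulk samples, fewer cells of a type and less RNA per cell cannot be told apart.

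The levels of the 8 genes fell into 3 patterns over the 4 groups. All 8 were highest in DMD PROL by their mean, and 7 of 8, all but *PSIP1*, had their next highest mean in WT PROL. *HMGB1*, *HMGN2*, *DNMT1* and *ASF1B* were low in DMD DIFF and in WT DIFF, where the genotypes overlapped. *HMGB2*, *HMGA1* and *PSIP1* were lower in DMD DIFF than in WT DIFF, although they were higher in DMD PROL than in WT PROL. *H2AFZ* was higher in DMD than in WT in both states.

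**Figure D1:**
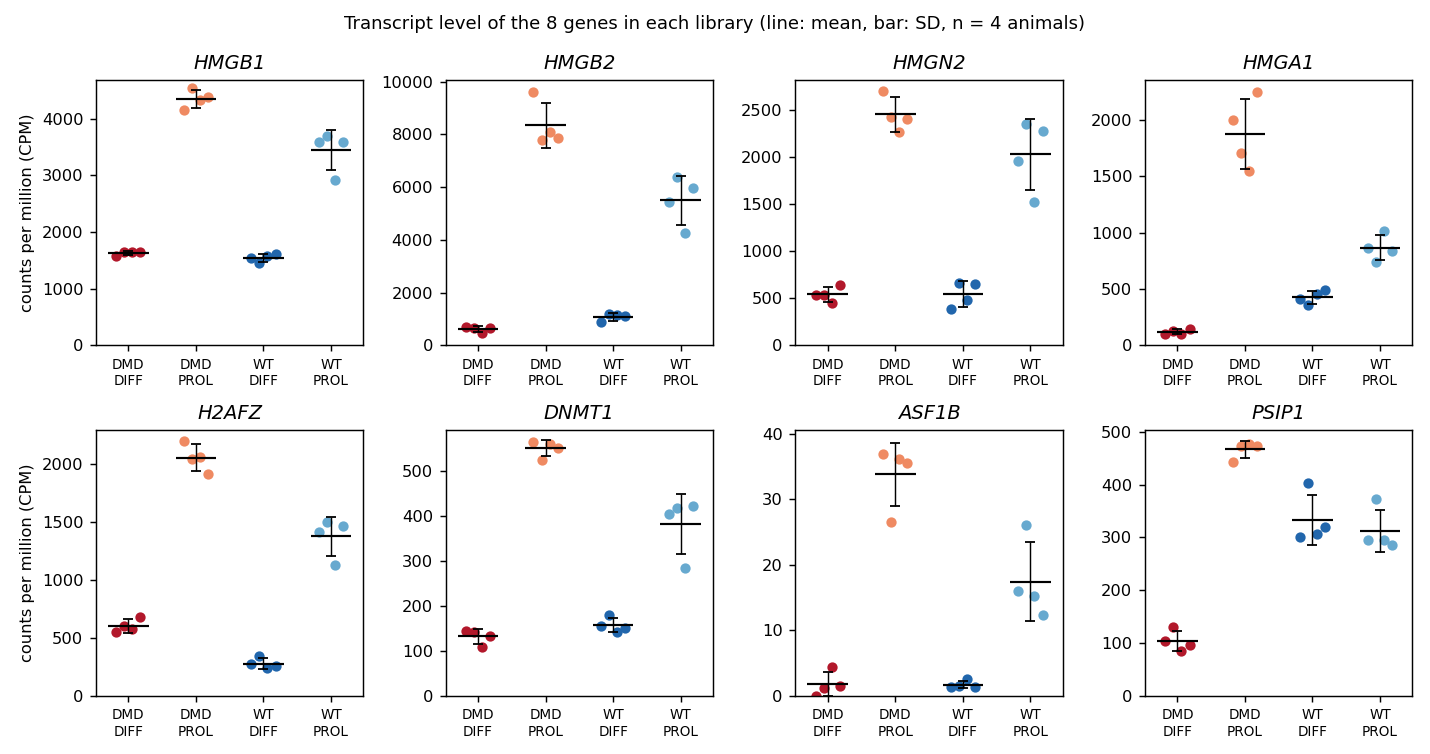
Level of each of the 8 genes in every library, in CPM (vertical axis, a separate linear scale for each gene), by group, with 1 point per library, a line at the mean and bars of ± SD (n = 4 animals). *HMGA1* averaged 119 CPM in DMD DIFF, 1874 in DMD PROL, 428 in WT DIFF and 864 in WT PROL, and *PSIP1* in WT DIFF (333 CPM) lay close to WT PROL (312 CPM).

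*HMGB1* encodes an abundant HMG box protein that bends DNA in the nucleus and acts as a danger signal when it leaves injured cells. In DIFF it had 1575, 1639, 1639 and 1651 CPM in DMD SCs, against 1539, 1454, 1574 and 1604 CPM in WT SCs. In PROL it had 4155, 4531, 4322 and 4386 CPM in DMD SCs, against 3584, 3698, 2922 and 3587 CPM in WT SCs. All PROL libraries stood above all DIFF libraries, the genotypes overlapped in DIFF, and in PROL every DMD library lay above every WT library. The log2 fold change of DIFF over PROL was −1.43 (SE 0.07) in DMD and −1.18 (SE 0.09) in WT. Between genotypes it was 0.07 (SE 0.08) in DIFF and 0.32 (SE 0.08) in PROL, DMD over WT. *HMGB1* was also the steadiest of the 8 genes between animals in DMD DIFF, with a coefficient of variation of 2.11%.

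*HMGB2* encodes the HMG box protein that is prominent in proliferating cells. It had 706, 652, 476 and 664 CPM in DMD DIFF, against 875, 1207, 1145 and 1104 CPM in WT DIFF. Its PROL levels were 9619.8, 7787, 8108 and 7864 CPM in DMD SCs, against 5441, 6401, 4248 and 5954 CPM in WT SCs. The genotypes did not overlap in either state, with DMD below WT in DIFF and above it in PROL. The log2 fold change of DMD over WT was −0.80 (SE 0.13) in DIFF and 0.59 (SE 0.12) in PROL. The difference between the states was therefore larger in DMD, where the mean was 625 ± 102 CPM in DIFF and 8345 ± 861 CPM in PROL, than in WT, with 1083 ± 145 CPM in DIFF and 5511 ± 929 CPM in PROL (SD, n = 4). On the log2 scale these were −3.75 (SE 0.13) in DMD and −2.37 (SE 0.14) in WT.

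*HMGN2* encodes a nucleosome-binding protein that counteracts chromatin compaction. Its levels were 534, 538, 449.6 and 639.6 CPM in DMD DIFF, against 382, 666, 479 and 646 CPM in WT DIFF. PROL levels were 2700.0, 2422, 2265 and 2405 CPM in DMD SCs, against 1958, 2350.3, 1517 and 2275 CPM in WT SCs. The genotypes overlapped in DIFF and in PROL, the only one of the 8 genes to do so in PROL. The log2 fold change of DMD over WT was −0.01 (SE 0.17) in DIFF and 0.26 (SE 0.12) in PROL. That of DIFF over PROL was −2.19 (SE 0.10) in DMD and −1.92 (SE 0.21) in WT.

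*HMGA1* encodes an AT-hook protein that binds the minor groove of AT-rich DNA, is abundant in embryonic and tumor cells, and in mouse myoblasts is known to be downregulated when they differentiate. It had 96.7, 131, 105 and 144 CPM in DMD DIFF, against 412, 357, 453 and 489 CPM in WT DIFF. Its PROL levels were 1997, 1708, 1546 and 2247 CPM in DMD SCs, against 865, 743, 1011 and 836 CPM in WT SCs. The 4 groups did not overlap at all: DMD DIFF was lowest, then WT DIFF, then WT PROL, and DMD PROL was highest. DMD was 3.60-fold lower than WT in DIFF (log2 fold change −1.85, SE 0.14) and 2.16-fold higher in PROL (1.11, SE 0.12). DIFF was 15.8-fold lower than PROL in DMD (−3.98, SE 0.15) and 2.04-fold lower in WT (−1.03, SE 0.11). In DMD it ranked 3 among the decreases of 1886 genes tested between the states, with *ASF1B* at rank 2 and *HMGB2* at rank 5. *ASF1B* passed the filter there only through its PROL counts.

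*H2AFZ* encodes the histone variant H2A.Z, which replaces H2A at promoters and can be deposited outside of DNA replication. It had 554, 601, 572 and 682 CPM in DMD DIFF, against 271, 342, 238 and 253 CPM in WT DIFF. In PROL it had 2195, 2047, 2058 and 1912 CPM in DMD SCs, against 1413, 1497, 1132 and 1462 CPM in WT SCs. DMD stood above WT without overlap in both states, which no other of the 8 genes did. The log2 fold change of DMD over WT was 1.12 (SE 0.12) in DIFF and 0.57 (SE 0.09) in PROL. The state difference was −1.78 (SE 0.09) in DMD and −2.33 (SE 0.13) in WT, so that *H2AFZ* was the only 1 of the 8 genes whose log2 fold change was closer to 0 in DMD than in WT.

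*DNMT1* encodes the enzyme that restores methylation on newly copied DNA. It had 144, 142, 108 and 132 CPM in DMD DIFF, against 156, 178, 142 and 149.9 CPM in WT DIFF. Its PROL levels were 563, 524, 559 and 550.3 CPM in DMD SCs, against 404, 417, 283 and 420.5 CPM in WT SCs. The genotypes overlapped in DIFF and were apart in PROL, with DMD above WT. The log2 fold change of DMD over WT was −0.25 (SE 0.13) in DIFF and 0.52 (SE 0.12) in PROL, and that of DIFF over PROL was −2.07 (SE 0.10) in DMD and −1.30 (SE 0.14) in WT.

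*ASF1B* encodes a chaperone that carries histones H3 and H4 to newly made DNA and is the copy of ASF1 linked to proliferation. It was the least counted of the 8 genes, with 0, 2, 6 and 2 counts in DMD DIFF, against 2, 2, 4 and 2 counts in WT DIFF. In PROL it had 60, 42, 62 and 54 counts in DMD SCs, against 22, 42, 28 and 16 counts in WT SCs. In CPM every DMD PROL library lay above every WT PROL library, with 33.8 ± 4.84 against 17.4 ± 6.00 CPM (SD, n = 4), but the nearest pair, 26.6 CPM in DMD and 26.1 CPM in WT, held 42 counts each. Both DIFF groups held 10 counts in all, against 218 counts in DMD PROL and 108 counts in WT PROL. A genotype difference in DIFF was not detectable at this depth, and *ASF1B* did not pass the filter on low counts there. The log2 fold change of DMD over WT in PROL was 0.93 (SE 0.27) and that of DIFF over PROL −4.27 (SE 0.48) in DMD and −3.31 (SE 0.48) in WT.

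*PSIP1* encodes LEDGF, a reader of methylated histone H3 on transcribed genes that also tethers lentiviral integrase. It had 104, 131, 85.0 and 95.4 CPM in DMD DIFF, against 302, 402, 307 and 320.2 CPM in WT DIFF. Its PROL levels were 442, 473, 478 and 474 CPM in DMD SCs, against 296, 373, 296 and 285 CPM in WT SCs. DMD DIFF lay below all other groups and DMD PROL above them, while WT DIFF and WT PROL overlapped. DMD was 3.21-fold lower than WT in DIFF (log2 fold change −1.68, SE 0.14) and 1.48-fold higher in PROL (0.57, SE 0.10). DIFF was 4.51-fold lower than PROL in DMD (−2.17, SE 0.12), and in WT the log2 fold change was 0.07 (SE 0.12). *PSIP1* was thus the only 1 of the 8 genes that was not lower in WT DIFF than in WT PROL.

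Because both states came from the same animals, the level left in DIFF could be set against the PROL level of each animal. *HMGA1* in DIFF was at 4.84% to 7.65% of the same animal's PROL level in the 4 DMD animals and at 44.8% to 58.5% in the 4 WT animals. *PSIP1* was at 17.8% to 27.6% in DMD and at 102% to 112.4% in WT animals. Neither gene's ranges overlapped between the genotypes. *HMGB2* was at 5.87% to 8.44% in DMD and at 16.1% to 26.95% in WT animals. *DNMT1* was at 19.3% to 27.2% in DMD and at 35.6% to 50.4% in WT animals. *HMGB1* was at 36.2% to 37.9% in DMD and at 39.3% to 53.9% in WT animals. For these genes too, every DMD animal kept a smaller share than every WT animal. For *HMGB1* the nearest animals were at 37.9% and 39.3%. With library size alone in place of TMM, its log2 change from PROL to DIFF differed between the genotypes by 0.03, against −0.26 with TMM. How many of all genes would show such a split was not counted, so nothing is read from it. *H2AFZ* showed the opposite order, with 25.2% to 35.7% in DMD and 17.3% to 22.8% in WT animals. *HMGN2* overlapped, with 19.8% to 26.6% in DMD and 19.5% to 31.6% in WT animals, and so did *ASF1B*, with 0% to 12.0% in DMD and 5.65% to 17.0% in WT animals.

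**Figure D2:**
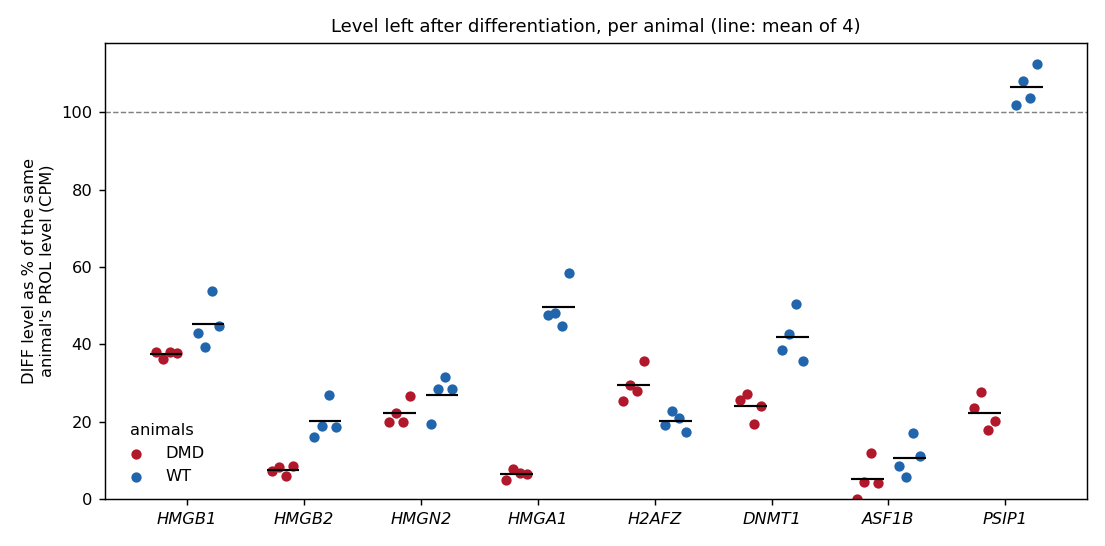
DIFF level of each gene as a percentage of the same animal's PROL level (vertical axis, linear; the dashed line marks 100%), with 1 point per animal, 4 DMD animals left of 4 WT animals and a line at each mean. For *HMGA1* the DMD animals sit at 4.84% to 7.65% and the WT animals at 44.8% to 58.5%, and for *PSIP1* the WT animals sit just above 100%.

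A gene was called when the Benjamini-Hochberg adjusted *p* of edgeR's quasi-likelihood F test over all genes was under 0.05 and the absolute log2 fold change over 0.6. Between the states in DMD, 8 of 8 genes were called lower in DIFF, where 12.4% of 1886 genes tested were called lower and 16.0% higher. In WT, 7 of 8 were called lower in DIFF, where 14.3% of 1921 genes were called lower and 17.9% higher. *ASF1B*, with 10 counts in each DIFF group, passed the filter of both comparisons only through PROL. A call of higher in DIFF was therefore not open to it. The same 8 genes in DMD (18.9% of genes tested) and 7 in WT (19.5%) had all DIFF libraries below all PROL libraries. In DIFF, 7 of 8 genes passed the filter, and 1, *H2AFZ*, was called higher in DMD than in WT (16.1% of 1916 genes) and 3, *HMGB2*, *HMGA1* and *PSIP1*, were called lower (17.5%). In PROL, 2 of 8, *HMGA1* and *ASF1B*, were called higher in DMD than in WT (8.36% of 1914 genes), and 0 were called lower (9.87%). All 8 log2 fold changes were above 0, where the median of all genes tested was −0.002. The DMD libraries lay above the WT libraries without overlap in PROL for 7 of 8 genes, against 15.8% of genes tested. In DIFF the DMD libraries lay above them for 1 gene (22.1% of genes tested) and below them for 3 (23.2%). Since the 8 genes were chosen with such results known, nothing is read from these counts.

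The PROL count of 2 depended on single libraries, as *HMGB2*, *H2AFZ* and *PSIP1* had log2 fold changes between 0.57 and 0.59, next to the limit of 0.6. It was 1 without DMD PROL replicate 1, 4 without DMD PROL replicate 4 and 5 without WT PROL replicate 2. *HMGA1* was called in all of these fits, and *ASF1B* in all but the fit without DMD PROL replicate 1 and the fit without WT PROL replicate 4. In DIFF the counts of 1 and 3 were the same without any 1 of the 8 libraries. The term that sets the genotype difference in DIFF against that in PROL was called negative for 4 of 8 genes (13.0% of 2030 genes tested) and positive for 0 (10.5%). It was −2.96 (SE 0.20) for *HMGA1*, −2.25 (SE 0.17) for *PSIP1*, −1.39 (SE 0.19) for *HMGB2* and −0.77 (SE 0.17) for *DNMT1* on the log2 scale. With library size alone in place of TMM, the term for *DNMT1* was −0.49 and was not called, and that for *H2AFZ* was called positive. The DIFF and PROL comparisons of a genotype share no library but share animals.

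**Figure D3:**
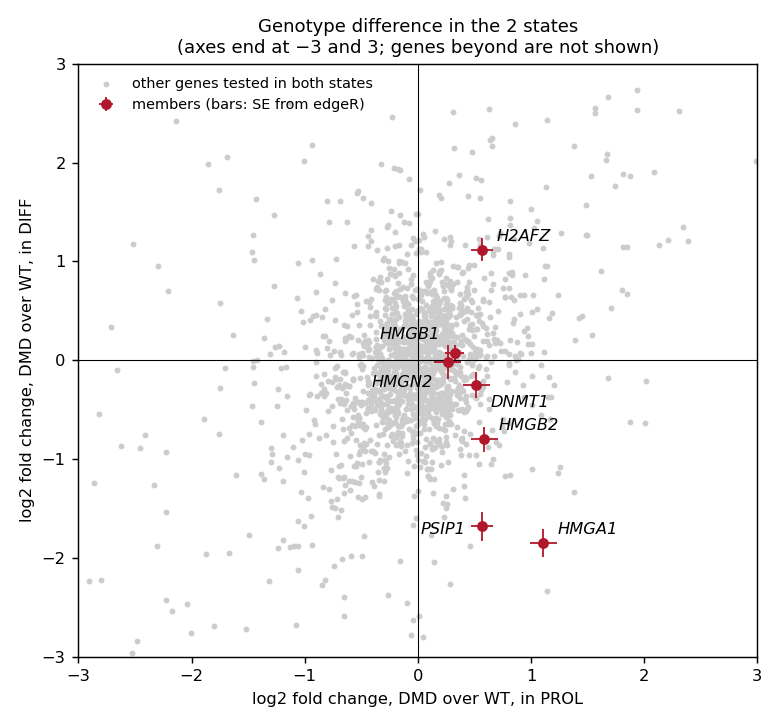
Log2 fold change of DMD over WT in DIFF (vertical axis) against that in PROL (horizontal axis) for the 1833 genes tested in both states (grey points, genes beyond −3 and 3 not shown), with 7 of the 8 genes in red and bars of 1 SE; *ASF1B* was not tested in DIFF. *HMGA1* (1.11 in PROL and −1.85 in DIFF), *PSIP1* (0.57 and −1.68) and *HMGB2* (0.59 and −0.80) lie in the lower right quadrant, and *H2AFZ* (0.57 and 1.12) in the upper right.

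Genes that copy DNA gave the nearest comparison. Of a list of 63 genes of DNA replication, 11 were in the table and 8 were tested between the states. In DMD 8 of 8 were called lower in DIFF than in PROL (12.4% of genes tested), with a median log2 fold change of −1.82, against 0.01 for all genes tested. They included *PCNA*, the sliding clamp of DNA polymerases (−2.32, SE 0.14, edgeR adjusted *p* = 8.5e-10). They also included the single-strand binding subunit *RPA2* (−1.71), the clamp loader subunit *RFC3* (−1.94) and the primase subunit *PRIM1* (−2.55). In WT 6 of 8 were called lower (14.3% of genes tested), with a median of −1.48 against 0.03 for all genes. There *PCNA* was at −1.65 (SE 0.17, adjusted *p* = 1.9e-06), *RPA2* at −1.36, *RFC3* at −1.60 and *PRIM1* at −1.71, and *DBF4*, a kinase activator at replication origins, at −0.41 and the polymerase subunit *POLD2* at −0.34 did not pass the test. The medians of the 8 chromatin genes were −2.18 in DMD and −1.61 in WT.

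**Figure D4:**
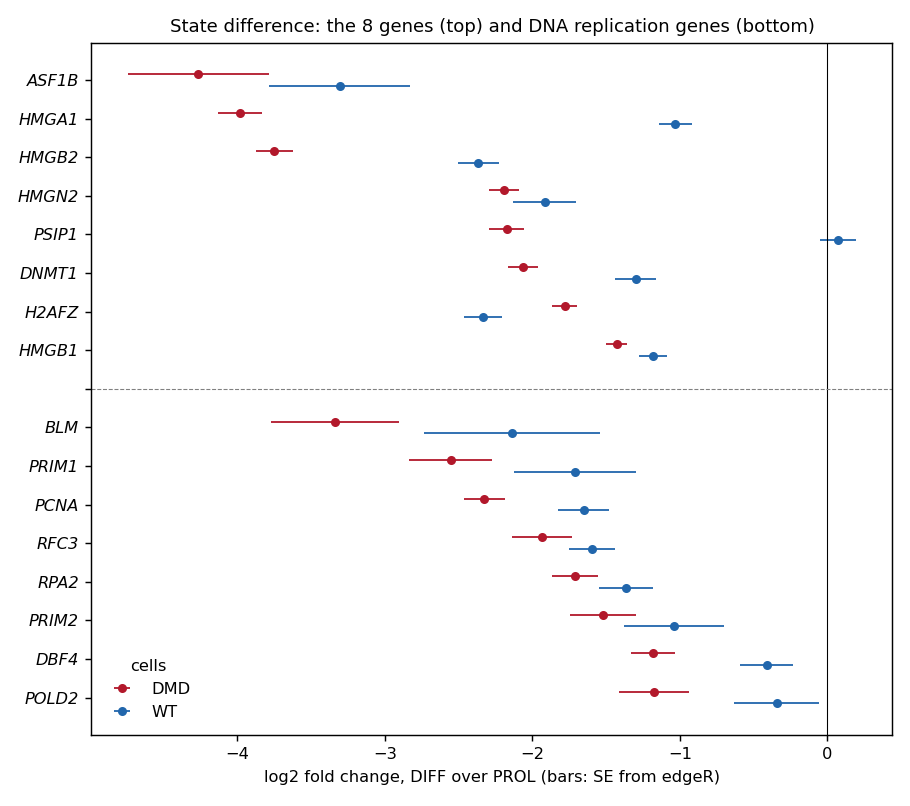
Log2 fold change of DIFF over PROL (horizontal axis) in DMD (red) and WT SCs (blue) for the 8 genes (upper rows) and for 8 DNA replication genes (lower rows), with bars of 1 SE from edgeR. *HMGA1* (−3.98 in DMD and −1.03 in WT) and *PSIP1* (−2.17 and 0.07) show the widest gaps between the genotypes, while the 8 replication genes all lie further from 0 in DMD than in WT.

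Between genotypes in PROL, all 8 replication genes had fold changes of DMD over WT above 0, with a list median of 0.47 against a median near 0 for all genes. Of the 8, 2 were called higher in DMD, against 8.36% of genes tested, the helicase gene *BLM* (1.04, SE 0.28, edgeR adjusted *p* = 0.011) and the primase gene *PRIM2* (0.70, SE 0.23, adjusted *p* = 0.035). This count was 0 in the fit of all 16 libraries and without DMD PROL replicate 1, 4 without WT PROL replicate 2, and 1 with library size alone, with either duplicate alone and without DMD PROL replicate 2 or 4 or WT PROL replicate 1 or 3. *PRIM2* lost its call in 8 of 19 alternatives, 5 of them these single libraries of DMD (1, 2 and 4) and WT (1 and 3), with 0.50 to 0.87 when a library was left out, and *BLM* in 3 of 19, among them the one without DMD PROL replicate 1 (0.85). In DIFF 0 of 7 were called in edgeR, and 0 in DESeq2, with a median of −0.28 against −0.03 for all genes. Of the 7, 1 had an unadjusted *p* under 0.05 in edgeR, *DBF4* at −0.44, and 1 was called lower with the first duplicate alone. The difference between the states in the genotype effect was below 0 for 9 of 9 replication genes and was called for 2, *DBF4* (−0.78, SE 0.22, adjusted *p* = 0.010 in edgeR) and *PCNA* (−0.68, SE 0.23, adjusted *p* = 0.026). Neither call was made with library size alone or with the second duplicate alone, and the count was 1 without DMD replicate 2 or 3 or WT replicate 3 or 4, and 3 without WT replicate 2. The summed level of the replication list was 232 to 296 CPM in DMD DIFF, 936 to 1042 in DMD PROL, 284 to 362 in WT DIFF and 567 to 866 in WT PROL.

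Mitotic genes were measured beside them. Of 40 listed, 10 were in the table. In DMD 8 of 9 tested were called lower in DIFF than in PROL (12.4% of genes tested), and in WT 7 of 9 (14.3%). The mitotic cyclin gene *CCNB1* was at −3.25 in DMD (SE 0.15, edgeR adjusted *p* = 1.4e-10) and at −3.78 in WT (SE 0.34, adjusted *p* = 2.6e-05). *CDC20*, an activator of the anaphase-promoting complex, was at −3.48 in DMD and −3.70 in WT, and the cyclin gene *CCNA2* at −3.37 and −3.82. The kinase genes *CDK1* (−3.39 and −2.47) and *AURKA* (−2.62 and −3.29) and the microtubule regulator *STMN1* (−1.47 and −2.10) were lower in both genotypes as well. *CKS1B*, a subunit of cyclin-dependent kinases, was lower in DMD (−1.43), and in WT its value of −0.25 did not pass the test. *MKI67*, which encodes the proliferation antigen Ki-67, was called in neither, with −0.15 in DMD and −0.29 in WT.

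Between the genotypes, 2 of 9 mitotic genes tested in DIFF were called higher in DMD (16.1% of genes tested) and 1 lower (17.5%). *STMN1* (1.75, SE 0.21, edgeR adjusted *p* = 1.7e-05) and *CCNA2* (1.10, SE 0.43, adjusted *p* = 0.046) were higher, and *CKS1B* was lower (−1.10, SE 0.11, adjusted *p* = 5.4e-07). The *CCNA2* call in DIFF was lost in 8 of 17 alternatives, among them those without DMD DIFF replicate 1, 2 or 4 or WT DIFF replicate 1, 2 or 4, and its value was 0.88 to 1.39 with a library left out. In PROL, 2 of 10 were called higher in DMD (8.36% of genes tested), *STMN1* (1.13) and *CCNA2* (0.66). Of the 10, 0 were called lower (9.87%), and *CKS1B* was at 0.08. *CCNA2* in PROL was not called with library size alone, with the second duplicate alone or without WT PROL replicate 3 (0.57). The difference between the states in the genotype effect was called negative for *CKS1B* (−1.18) and *CDK1* (−0.92) of 10 tested (13.0% of genes tested). The *CDK1* call was lost in 11 of 18 alternatives, among them those without DMD replicate 1, 2 or 3 or WT replicate 1, 3 or 4 (−1.26 to −0.62 with a replicate left out). The mitotic list summed to 840.2 to 1008 CPM in DMD DIFF, 2834 to 3095 in DMD PROL, 803 to 887 in WT DIFF and 1889 to 2558 in WT PROL. Its part in the levels of the 8 genes was not tested.

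WT PROL replicate 3 stood apart in several of the 8 genes. It was the lowest of its group in *HMGB1*, *HMGB2*, *HMGN2*, *H2AFZ* and *DNMT1*, and the highest in *HMGA1*. Its summed mitotic (1889 CPM) and replication levels (567 CPM) were also the lowest of the 4 WT PROL libraries, the others being at 2308 to 2558 and 784 to 866 CPM. Without this library the same 2 genes, *HMGA1* and *ASF1B*, were called higher in DMD PROL.

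Relatives and partners of the 8 genes were few in the table. Of 14 other HMG genes 2 were counted, *HMGN3* and the mitochondrial *TFAM*, and neither was called in any comparison. *HMGN3* was at 487 ± 55.5 CPM in DMD DIFF, 643 ± 54.3 in DMD PROL, 463 ± 53.1 in WT DIFF and 436 ± 46.1 in WT PROL (SD, n = 4). Of 47 other histone genes 4 were in the table, and the 3 with any count were tested. *H2AFY*, which encodes macroH2A, and *H3F3A*, which encodes the replication-independent H3.3, were called in no comparison. *HIST1H2BD* was higher in DIFF than in PROL in DMD (2.38, SE 0.23, edgeR adjusted *p* = 2.7e-07) and in WT (1.60, SE 0.17, adjusted *p* = 2.3e-06), opposite to *H2AFZ*, and lower in DMD than in WT in PROL (−1.24, SE 0.26, adjusted *p* = 0.0022). Its difference between the states in the genotype effect (0.78, adjusted *p* = 0.045) lost its call in 9 of 18 alternatives, among them those without DMD replicate 1, 2 or 4 or WT replicate 2, 3 or 4, and was 0.53 to 1.01 with a replicate left out. Transcripts of replication-dependent histones mostly lack a poly(A) tail, and these libraries were primed on poly(A).

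Among histone chaperones, 4 of 33 listed genes were tested. *RUVBL2*, an ATPase of complexes that exchange H2A.Z, was lower in DIFF than in PROL in DMD (−0.82) and in WT (−0.94), and no chaperone was called between the genotypes in DIFF or in PROL. The difference between the states in the genotype effect was called for *NAP1L1*, a chaperone of H2A and H2B (−0.64), and that call was lost with library size alone and without DMD replicate 4 or WT replicate 1 or 2 (−0.73 to −0.57 with a replicate left out). Among genes of DNA methylation, 4 of 19 were tested. *AHCY*, which clears the by-product of methyltransferase reactions, was lower in DIFF in DMD (−1.48, SE 0.14, edgeR adjusted *p* = 2.3e-07) and in WT (−1.54, SE 0.18, adjusted *p* = 5.1e-06), and higher in DMD than in WT in DIFF (0.82) and in PROL (0.77). *MAT2A*, which makes the methyl donor, was lower in DIFF in DMD (−1.15), a call lost without DMD replicate 2, 3 or 4 (−1.41 to −1.02 with a replicate left out). *DNMT3A*, a methyltransferase that sets new marks, was at 28.4 ± 3.98 CPM in DMD DIFF and 16.8 ± 2.80 CPM in DMD PROL (log2 fold change 0.75, adjusted *p* = 0.028), but this call was lost in 8 of 15 alternatives, among them those without any 1 of the 4 DMD replicates (0.63 to 0.83).

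Of 37 other chromatin modifiers and nuclear structure genes, 12 were in the table and tested. In DMD 3 were called lower in DIFF than in PROL (12.4% of genes tested) and 0 were called higher (16.0%). The 3 were *EZH2*, a histone methyltransferase of the Polycomb group (−2.48, SE 0.18, edgeR adjusted *p* = 1.2e-08), the nuclear protein gene *NUCKS1* (−0.75) and the methyltransferase gene *SUV39H2* (−1.04, a call lost without DMD replicate 2, where leaving out a replicate gave −1.29 to −0.87). In WT 3 were called lower (14.3% of genes tested) and 3 higher (17.9%). *EZH2* (−1.92), *SUV39H2* (−1.73) and the lamin gene *LMNA* (−1.80) were lower, and *EZH1*, the relative of *EZH2* (1.71), the remodeling factor gene *RSF1* (0.61) and the demethylase gene *KDM5C* (0.94) were higher. *RSF1* lost this call in 6 of 15 alternatives, among them the one without WT replicate 3 (0.48). The WT calls of *SUV39H2* and *KDM5C* were not followed over the alternatives, and *KDM5C* overlapped between WT DIFF and WT PROL. In DIFF 1 of the 12 was called higher in DMD than in WT (16.1% of genes tested), the remodeling subunit gene *BAZ1A* (0.92). Called lower were 3 (17.5%), *RSF1* (−0.70), *EZH1* (−1.06) and the methyltransferase gene *EHMT2* (−0.80). *EHMT2* lost its call in 7 of 19 alternatives, among them those without DMD DIFF replicate 4 or WT DIFF replicate 1, 3 or 4 (−0.90 to −0.59 with a library left out). *EZH1* lost it in 4 of 19, among them those without DMD DIFF replicate 1 or 4 or WT DIFF replicate 3 (−1.35 to −0.82), and *RSF1* in 2 of 19, with library size alone and the first duplicate alone. In PROL *EZH2* was higher in DMD (0.61), a call lost in 8 of 19 alternatives, among them those without DMD PROL replicate 1 or 2 or WT PROL replicate 1 or 3 (0.46 to 0.72), and *LMNA* was lower (−0.82). Set against PROL, the genotype effect in DIFF was called more positive for *LMNA* (1.33) and *BAZ1A* (0.71) and more negative for *RSF1* (−0.62). The *BAZ1A* call was lost without WT replicate 3 (0.58), and the *RSF1* call without DMD replicate 1 or 4 or WT replicate 3 (−0.75 to −0.47 with a replicate left out).

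Regulators of entry into and exit from the cell cycle, 8 of 39 listed genes tested, fell on both sides. In DMD 4 were called lower in DIFF than in PROL (12.4% of genes tested), *MYBL2* (−2.31), *CCNE2* (−2.03), *CDKN3* (−1.46) and *MYC* (−0.65). *GADD45G*, a gene of the growth arrest and DNA damage family, was called higher (1.39), where 16.0% of genes tested were. In WT the same 4 were called lower (14.3% of genes tested), *MYBL2* at −3.14, *CCNE2* at −1.62, *CDKN3* at −2.06 and *MYC* at −0.67. There *GADD45G* was called higher (1.18), where 17.9% of genes tested were. The *MYC* call in WT was lost without WT replicate 2 or 3 (−0.74 to −0.56 with a replicate left out). The *GADD45G* call in WT, which rests on 90 counts in WT DIFF and 42 in WT PROL, was not followed over the alternatives. Neither was the *MYC* call in DMD. Between the genotypes 4 were called higher in DMD in DIFF (16.1% of genes tested), *GADD45G* (2.52), *CCND2* (0.84), *CDKN3* (0.95) and *MYBL2* (0.98), and 0 were called lower (17.5%). In PROL 2 were called higher (8.36% of genes tested), *GADD45G* (2.30) and *CCNE2* (0.61), and 0 were called lower (9.87%). The call of *MYBL2* in DIFF was lost in 6 of 18 alternatives, among them those without DMD DIFF replicate 1 or 4 or WT DIFF replicate 3 or 4 (0.80 to 1.13 with a library left out). That of *CCNE2* in PROL was lost in 7 of 19, among them those without WT PROL replicate 1, 2 or 3 (0.52 to 0.80). Of the 8 genes of this list, 1 had a called difference between the states in the genotype effect, *CCND2* (0.71).

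For *PSIP1*, 1 of 15 relatives and partners was counted. *SRSF1*, a splicing factor that binds LEDGF p52 in human cells, was lower in DIFF than in PROL in DMD (−0.89, SE 0.11, edgeR adjusted *p* = 6.9e-06) and in WT (−1.50, SE 0.17, adjusted *p* = 4.0e-06), and higher in DMD than in WT in DIFF (0.95, SE 0.16, adjusted *p* = 9.1e-05), the opposite direction of *PSIP1*. Its difference between the states in the genotype effect (0.60) lost its call in 9 of 18 alternatives, among them those without DMD replicate 1, 2 or 3 or WT replicate 3 or 4 (0.45 to 0.77 with a replicate left out).

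For *HMGB1*, 11 of 13 receptors and adaptors were in the table. Its receptor gene *AGER* had 2 counts in WT PROL, *TLR4* had 2 counts in WT DIFF and 8 in WT PROL, and neither had a count in any other group. *TLR2* had 12, 2, 38 and 16 counts in DMD DIFF, DMD PROL, WT DIFF and WT PROL. In DIFF 4 of 5 tested were called lower in DMD than in WT (17.5% of genes tested). The chemokine gene *CXCL12* had 10 counts in DMD DIFF and 268 in WT DIFF (log2 fold change −4.73, SE 0.60, edgeR adjusted *p* = 1.3e-05). The thrombomodulin gene *THBD* was at 7.21 to 15.4 CPM in DMD DIFF and 18.1 to 59.2 CPM in WT DIFF (−2.12), and *CD14*, a coreceptor that is also a monocyte marker, at 20.0 ± 2.18 and 52.5 ± 6.54 CPM (−1.40). *LY96*, the coreceptor of TLR4, was at 81.9 ± 14.1 CPM in DMD DIFF and 127 ± 9.25 CPM in WT DIFF (−0.64, SE 0.15, adjusted *p* = 0.0021), a call lost in 4 of 19 alternatives, among them those without DMD DIFF replicate 1 or WT DIFF replicate 4 (−0.70 to −0.52 with a library left out). In PROL the syndecan gene *SDC1* was higher in DMD (1.71), and *CD14* was lower (−0.71), a call lost in 5 of 19 alternatives, among them those without DMD PROL replicate 1 or 4 or WT PROL replicate 2 or 3 (−0.83 to −0.57 with a library left out). Between the states, *LY96* (−0.94), *SDC1* (−1.19) and *CD14* (−0.74) were lower in DIFF in DMD, and *CXCL12* (2.68) and *THBD* (1.82) were higher in DIFF in WT. In DMD the *SDC1* call was lost without replicate 3 (−1.64 to −0.94 with a replicate left out) and the *CD14* call without replicate 2 or 3 (−0.82 to −0.63). Set against PROL, the genotype effect in DIFF was called more negative for *LY96* (−0.94), *CXCL12* (−3.83) and *SDC1* (−1.17). That of *SDC1* was lost in 8 of 18 alternatives, among them those without DMD replicate 2, 3 or 4 or WT replicate 1, 2 or 3 (−1.61 to −0.92).

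The 3 genes most like each of the 8 over the 16 libraries were sought among 1541 genes by Pearson's *r* of log2 CPM, as a description, since the 16 libraries come from 8 animals and 4 groups. *HMGB2* and *DNMT1* were nearest to each other (*r* = 0.987 and Spearman's rho 0.974), apart from *SNRPE*, a spliceosome gene, which was as near to *DNMT1* (*r* = 0.987). *PCNA* followed both (*r* = 0.985 with *HMGB2*). *HMGN2* was nearest to the mitotic kinase gene *PBK* (0.986) and *TOPOII* (0.986), and *H2AFZ* to *CDKN3*, a cell cycle phosphatase (0.971). *HMGB1* was nearest to *LOC100514810* (0.985) and the nuclear transport gene *RANBP1* (0.983). *ASF1B* was nearest to *HMGB1* (0.961). *HMGA1* was nearest to *UXS1*, a sugar nucleotide enzyme (0.943), the lowest of these nearest values. *PSIP1* was nearest to *LARP7*, which binds the 7SK RNA (0.966), then to the ribosomal protein gene *RPL36AL* (0.939) and to *CKS1B* (0.920). *LARP7* was at 179 ± 3.40 CPM in DMD DIFF, 326 ± 12.4 in DMD PROL, 272 ± 34.6 in WT DIFF and 268 ± 10.8 in WT PROL (SD, n = 4), the order of the groups of *PSIP1*.

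The technical duplicates set a scale for these differences. The median absolute log2 difference between the duplicates of a library was 0.05 to 0.18 for 7 of the 8 genes and 0.75 for *ASF1B*. The largest for a gene other than *ASF1B* was 0.72, for *HMGA1* in WT PROL replicate 2, whose duplicates held 384 and 812 counts (549 and 909 CPM). Both values lay below the lowest DMD PROL library at 1546 CPM and above the highest WT DIFF library at 489 CPM. In DMD PROL replicate 4, *RN18S* took 31.99% of the counts of the first duplicate and 7.14% of the second. Without this library *HMGA1* and *ASF1B* were still called higher in DMD PROL. Several of the 8 genes belong to families with near-identical processed copies in mammalian genomes, *HMGB1*, *HMGN2* and *H2AFZ* above all, and whether reads were lost to or gained from such copies was not tested.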

How the data were processed

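According to the study, 3′ libraries with unique molecular identifiers were made from 25 ng of total RNA in 2 technical duplicates, read out with bcl2fastq, checked by FastQC and MultiQC, stripped of duplicates by identifier, aligned by STAR 2.7.10b to susScr3 and counted per gene in its GeneCounts mode, with R 4.1.2 for later steps. The authors deposited raw counts, not normalized, in 32 columns; the annotation and strand setting are not given in the sources used here. All 124000 values were even, for a reason not stated, and were used as they stand. Duplicates were added, giving 16 libraries of 8 animals and 3875 genes, 608 without a count.

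The 8 genes, the lists and the tests were chosen with earlier results of these data known. Of the replication list 2 genes are not reported here, and its counts and sums leave them out. Tests used edgeR 4.0.16 in R 4.3.3 (groupwise filterByExpr with a minimum count of 10 and a minimum total of 15, TMM, estimateDisp, robust glmQLFit, glmQLFTest), in the 8 libraries of a comparison or, for the difference between states, all 16, and a call needed both an adjusted *p* (Benjamini-Hochberg) below 0.05 and a log2 change beyond 0.6 in size. The fits were also run on simulated counts, with the same dispersion for every gene and no animal effect shared between the states. That run cannot show how calls near the limits or at low counts behave, and nothing is read from it. The SE is the absolute log2 fold change divided by the square root of the F statistic. CPM used TMM factors over the 16 libraries. Duplicates were compared as CPM with TMM factors over the 32 columns. Replicates are animals; counting error alone sets a further limit, which matters for *ASF1B*.

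The text names the 8 genes, of each list of related genes per comparison the 4 called genes with the smallest *p*, and the nearest genes among the 3 most like each of the 8 with at least 20 mean CPM. The myogenic, fibroblast, endothelial, and smooth muscle and pericyte lists are given mainly by their sums, and the sums of the other cell type lists are not given. Genes that did not pass, and called genes beyond the first 4 of a list, were singled out after their values were seen. Their calls in that comparison were not followed gene by gene over the alternatives, so that no lost call given does not mean a stable one. DMD DIFF and DMD PROL of the same number come from the same animal, as do WT DIFF and WT PROL; after the mean of each group was taken off, libraries of the same animal correlated by 0.0998 to 0.172, in each case best with their own animal. Across genotypes, equal numbers are different animals. Such libraries correlated by −0.0087 to 0.0921 in DIFF, with 3 of 4 best with their own number, and by −0.0274 to 0.0993 in PROL, with 2 of 4. The lowest value of the same animal is thus close to the highest of different animals. Alternatives were DESeq2 1.42.0, library size alone, upper quartile factors, other filters, each duplicate alone (the second added after seeing the data), halved counts, no *RN18S*, 1 fit of all 16 libraries, a replicate block and leaving out each replicate. No sequence or coordinate is given, since none of the build of the files was used here.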

Additional observations from a re-analysis of the deposited data

Results flagged for a closer look

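In 32 groups of 4 libraries (8 genes in 4 groups), 7 held a library apart from the other 3 by Dixon's criterion, which chance meets in about 1 in 20 groups. That rate is for independent groups. The 8 genes share the same libraries and many vary together, and *ASF1B* has few counts, so nothing is read from the number 7. *HMGB1* was at 1575 CPM in DMD DIFF replicate 1, with the others at 1639 to 1651 CPM, and at 2922 CPM in WT PROL replicate 3, with the others at 3584 to 3698 CPM. *DNMT1* was at 283 CPM in the same WT PROL library, with the others at 404 to 420.5 CPM. *ASF1B* was at 26.6 CPM in DMD PROL replicate 2 (others 35.5 to 37.0 CPM) and at 2.59 CPM in WT DIFF replicate 3 (others 1.36 to 1.47 CPM), which stands for 4 counts against 2 in each other library. *PSIP1* was at 442 CPM in DMD PROL replicate 1 (others 473 to 478 CPM) and at 373 CPM in WT PROL replicate 2 (others 285 to 296 CPM).

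For 3 genes the DMD libraries lay wholly on opposite sides of the WT libraries in DIFF and in PROL. How many of all genes would show such a reversal was not counted, so nothing is read from the number 3. The genotype difference in DIFF minus that in PROL was −2.96 for *HMGA1*, −2.25 for *PSIP1* and −1.39 for *HMGB2* on the log2 scale. The genes were chosen with these values known, so the differences are given as a description and no test is drawn from them.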

How the results depend on the processing

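Over the alternatives, 657 of 667 fold changes of the 8 genes moved by less than a combined SD, 10 moved by more and no called one changed sign. The combined SD is the square root of the summed log2 variances between animals of the groups compared, and is wider than the SD of a single group. For *ASF1B* it was so wide that a difference between the states of −1.82 to −0.09 counted as unmoved. The measure also does not register lost or gained calls, such as those of *DNMT1* and *H2AFZ* with library size alone. Of 1483 values of named list genes, 1335 kept their call and direction, 148 lost the call and 0 changed sign. Counts of calls in the replication and mitotic lists stayed within 1.5 times in 300 of 344 values and moved further in 44. The mitotic count in DIFF was 1 to 3 higher and 1 to 2 lower in DMD, in PROL 1 to 2 higher, and for the difference between the states 0 to 1 positive and 1 to 2 negative. Counts over all genes and over the 8 genes stayed within 1.5 times in 332 of 344 values, with these exceptions. The 2 of the 8 genes called higher in DMD PROL were 1 with the first duplicate alone and 1 in the fit of all 16 libraries (*ASF1B* was lost both times; its log2 fold change was 0.42 with the first duplicate), and 1 to 5 with a replicate left out. With library size alone in place of TMM, calls between the states in WT were 194 higher and 564 lower in DIFF, against 343 and 275, and those for the difference between the states 387 positive and 134 negative, against 213 and 263. That scaling moved the median log2 fold change of all genes by −0.32 in WT and turned *PSIP1* there to −0.28 and the *HMGB1* difference between the states to 0.03. The count of the 8 genes with a positive difference was 1 with library size alone, and 0 to 1 with a replicate left out (1 without DMD replicate 1 and 1 without WT replicate 2), against 0. Of the 7 genes called lower in WT DIFF, *ASF1B* was lost with a minimum count of 30 and with the second duplicate alone. Library size alone gave 122 higher and 264 lower between the genotypes in PROL (TMM 160 and 189) and 387 and 267 in DIFF (TMM 308 and 335).

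With the animal as a replicate block, calls between the states were 304 higher and 241 lower in DMD (302 and 234 without it) and 358 and 282 in WT, and the same genes of the 8 were called as without pairing. Across genotypes, where numbers pair no animals, the block gave 150 and 176 calls in PROL and 305 and 324 in DIFF, and 230 and 262 for the difference between the states.

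Precision is limited by 4 animals per genotype, by the depth per library and for *ASF1B* in DIFF by 10 counts per group.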
